A study of Mus musculus with 44 samples.

Results

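The change of the embryonic posterior gut between E9.5 and E13.5 was followed in 7 of the 44 RNA libraries of a lineage-tracing study of the mouse gut: 4 libraries titled emHindgut at E9.5 and 3 titled emColon at E13.5, chosen by their titles. In these embryos the embryo proper came from GFP+ mouse embryonic stem cells (the G4 line, a male clone with GFP at Rosa26) and the extraembryonic tissues from mCherry+ morulae (CD1/G4). "em" marks gut cells that descended from the stem cells.

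Each emHindgut library held cells from the most posterior gut-containing part of 4 pooled wild-type embryos, enriched for the epithelial surface protein EPCAM on magnetic beads and then sorted as EPCAM+ dual+ cells. Dual+ cells are GFP+ cells that also carry mCherry signal, and the titles name the fraction with low mCherry. Each emColon library held EPCAM+ GFP+ cells of the colon of a single E13.5 embryo, cut from the small intestine by hand and sorted with no bead step. The sorted colon cells are labelled wild type, but the mCherry+ morulae of these embryos had been edited to lose Trp53. Stage, sort gate, bead enrichment, pooling, sorting day and the Trp53 state of the surrounding extraembryonic cells therefore changed together and cannot be told apart in this comparison. In bulk libraries fewer cells of a type and less RNA per cell also cannot be told apart.

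As background, the hindgut is the caudal end of the primitive gut tube and gives rise to the distal colon, while the tail bud beside it still makes new axial tissue. The tail bud is kept by Wnt and FGF ligands and by the transcription factor T, and it is kept free of retinoic acid by the enzyme CYP26A1. The endoderm then turns into a columnar epithelium under CDX2 and HNF4A and acquires the claudins, lectins, transporters and secreted proteins of the intestine, while Hox genes record its position along the body axis.

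Expression is given as TPM (a transcript level scaled by gene length and library total), and changes as log2 differences of TPM + 1, emColon minus emHindgut. The limma test was two-sided and adjusted by the Benjamini-Hochberg method over all genes tested. Calls required both an adjusted p below 0.05 and a log2 change of more than 1 in either direction. Protein-coding genes above 1 TPM in at least 3 of the 7 libraries were tested. Every adjusted p below comes from that limma fit unless another is named. Replicates are labelled as separate samples, pools of embryos at E9.5 and single embryos at E13.5.

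The emColon libraries were less alike than the emHindgut libraries. Across genes, log2(TPM + 1) correlated at 0.977 to 0.979 between emHindgut libraries and at 0.888 to 0.918 between emColon libraries, with emColon replicate 2 the least like the others. Between 9799 and 10906 protein-coding genes lay above 1 TPM in emColon against 12118 to 12403 in emHindgut. Of the genes above 20 TPM in both other emColon libraries, 24 of 4297 were listed at 0 in replicate 2, 6 of 4084 in replicate 1 and 5 of 4116 in replicate 3, while no such gene was found in any emHindgut library. Depth, worked out from the ratio of coverage to FPKM, was 2.15 to 6.59 Gb of aligned sequence in emHindgut and 3.04 to 4.26 Gb in emColon. Each library of both groups was made from a small number of sorted cells. A value listed at 0 does not show that the transcript was absent from the tissue. Read counts were not used here, so no counting interval can be given for a TPM.

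The labels were checked against marker genes. EPCAM mRNA was present in all 7 libraries, at 344, 331, 410 and 417 TPM in emHindgut and 844, 958 and 762 TPM in emColon. The EGFP reporter lay at 548 to 664 TPM in emHindgut and 440 to 522 TPM in emColon. mCherry was listed at 0 in every emColon library and at 0 to 6.61 TPM in emHindgut. Trp53, which was edited only in the extraembryonic host, was at 238, 227, 256 and 232 TPM in emHindgut and 151, 226 and 245 TPM in emColon (log2 change -0.23, adjusted p = 0.364). Cdx2, the homeobox factor that defines intestinal endoderm, lay at 248, 242, 272 and 306 TPM in emHindgut and 261, 210 and 180 TPM in emColon, and its log2 change of -0.31 was not called (adjusted p = 0.186). Pdx1, a marker of duodenum and pancreas, was listed at 0 in all 7 libraries. The emHindgut cells also held genes of the tail bud and presomitic mesoderm, such as T at 176 to 312 TPM and Msgn1 at 75.7 to 296 TPM. What cells of those tissues added to the libraries was not tested.

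Of 12359 genes tested, 2562 were called (20.7%), 514 higher in emColon (4.16%) and 2048 lower (16.6%). The median change of all genes tested was -0.54 on the log2 scale, so the bulk of the genes lay lower in emColon TPM and a list has to be read against that value. Counts of called list members likewise have to be read against the 4.16% higher and 16.6% lower of all genes tested. Scaling the libraries by median ratios moved the median to -0.22 and the split to 799 higher and 1300 lower. Quantile normalization gave 770 higher and 1024 lower, and FPKM 643 higher and 1469 lower. Without emColon replicate 2 the counts were 529 higher and 2180 lower. Single genes were tested only in the fit across all genes.

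**Figure D1:**
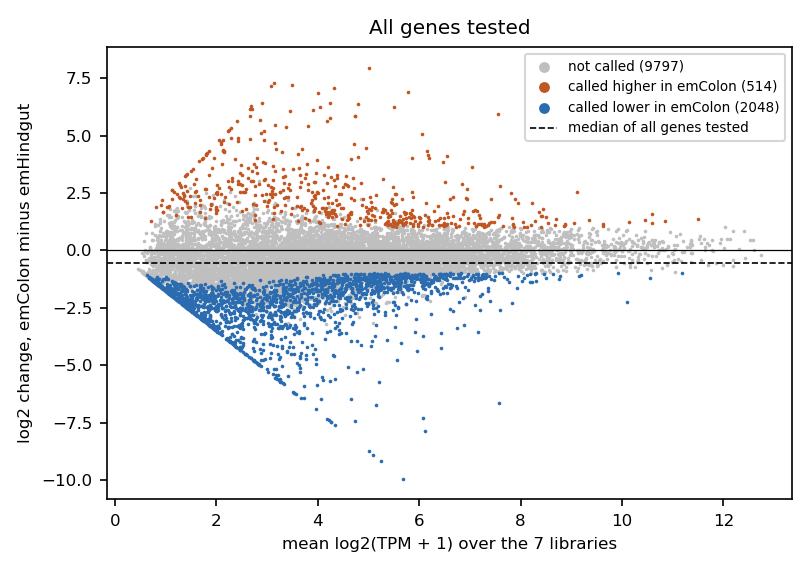
Each point is a gene; the x axis is the mean log2(TPM + 1) over the 7 libraries and the y axis the log2 change, emColon minus emHindgut, with called genes in colour and the median of all genes dashed. The 514 genes called higher and the 2048 called lower lie on both sides of a median of -0.54, and the diagonal lower edge holds genes listed at 0 in all emColon libraries.

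The largest rise was that of Apoa1, the main protein of high-density lipoprotein. It went from 4.94, 1.58, 0.302 and 3.15 TPM to 637, 608 and 1099 TPM (log2 change 7.96, SE 0.51, adjusted p = 3.75e-05). No emColon value came near the emHindgut values. Isx, an intestinal homeobox factor that controls vitamin A uptake, was listed at 0 in all 4 emHindgut libraries and was at 183, 181 and 118 TPM in emColon (adjusted p = 2.07e-05). Lgals4, an intestinal lectin, went from 0, 0.403, 0 and 1.25 TPM to 287, 361 and 69.7 TPM (log2 change 7.19, SE 0.63, adjusted p = 1.40e-04), with replicate 3 the lowest of the emColon libraries. Tspan8, an epithelial tetraspanin, lay at 327, 312 and 340 TPM in emColon and at most at 5.11 TPM in emHindgut (log2 change 7.07).

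Groups did not overlap, with emColon higher, for 8.13% of all genes tested and, with emColon lower, for 28.5%. Spink1, another of the 15 largest rises among such genes, a trypsin inhibitor, was at 808 to 878 TPM in emColon and 1.35 to 13.52 TPM in emHindgut. Tff3, the trefoil peptide of the mucus layer, was at 146 to 236 TPM against 0 to 4.36 TPM, and Afp, alpha-fetoprotein, at 465 to 661 TPM against 2.13 to 18.9 TPM. Postn, a matrix protein better known from mesenchyme, reached 295, 336 and 419 TPM from 0.527 to 10.3 TPM. The others were Lgals2, a second small galectin, Serpinb1a, a protease inhibitor, Wfdc15b, Serpina1a, Ugt2b34, a glucuronosyltransferase listed at 0 in every emHindgut library, Kcne3, a potassium channel subunit of the colon, and Scin, an actin-severing protein. Their changes ran from 6.16 for Scin to 7.18 for Lgals2. Serpina1a belongs to a family of near-identical genes, so how its reads were divided among them is uncertain.

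**Figure D2:**
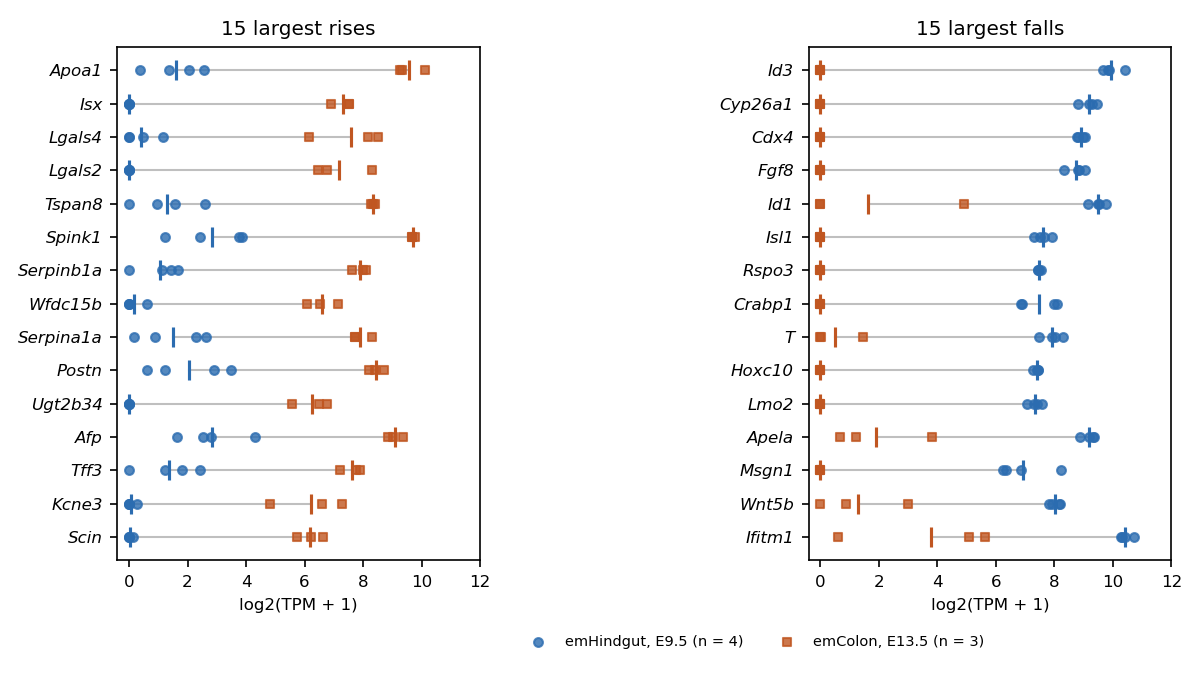
Dots are libraries, ticks group means on the log2(TPM + 1) axis, for the 15 largest rises (left) and falls (right) among called genes whose groups do not overlap. Most of the fallen genes sit at 0 in all 3 emColon libraries, whereas the risen genes sit at or below 18.9 TPM in emHindgut.

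Hnf4a, a nuclear receptor that drives enterocyte genes, was listed at 0, 0, 0 and 0.308 TPM in emHindgut and at 56.8, 31.4 and 9.36 TPM in emColon (log2 change 4.65, SE 0.60, adjusted p = 8.90e-04). The groups did not overlap.

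Of 21 tested genes on a list of intestinal differentiation factors, 11 rose and 3 fell, with a median change of 1.25 against -0.54 for all genes. Among the rises were those of Isx, Nr1h4 and Nr5a2. Nr1h4, the bile acid receptor FXR, rose to 12.4, 7.27 and 20.9 TPM from at most 1.54 TPM. Elf3, an epithelial ETS factor, rose by 1.16 on the log2 scale, a call lost without emColon replicate 1 (adjusted p = 0.0758). Hnf4g, the second HNF4 paralog, lay at 4.49, 0.472 and 7.65 TPM and was not called (adjusted p = 0.203). Without emColon replicate 2, 6 of 17 were called higher. With only 2 emColon libraries, genes seen in no other group could not pass the filter.

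Of 17 tested endoderm transcription factors 6 were called higher and 6 lower, where 4.16% of all genes tested were called higher and 16.6% lower. Their median change was -0.35 against -0.54 for all genes. Foxa1, a pioneer factor, rose from 12.8 to 33.3 TPM to 38.5 to 52.8 TPM (log2 change 1.11), a call lost without any single emColon library (adjusted p from 0.0558 to 0.0805). Gata6, which patterns gut endoderm, went from 2.14 to 4.81 TPM to 17.8 to 23.9 TPM (2.44) and Prdm1, a repressor of the adult intestinal program, from 6.61 to 9.12 TPM to 17.99 to 42.2 TPM (1.70). Sox9, a progenitor factor, rose from 27.4, 17.9, 23.9 and 22.1 TPM to 62.2, 51.8 and 62.4 TPM (1.34). Sox17 and Mixl1, which act when endoderm is first formed, were at 12.7 to 26.5 TPM and 32.5 to 68.7 TPM in emHindgut and were listed at 0 in all 3 emColon libraries. Foxa2 overlapped between groups, at 44.05 to 54.3 TPM and 17.9 to 68.1 TPM. Cdx1, a paralog of Cdx2, was at 29.6, 0 and 0 TPM in emColon, so that 1 library alone held it.

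Genes of the epithelial junctions rose more often than they fell. Of 44 tested junction and keratin genes, 17 rose and 2 fell, with a median change of 0.79. Epcam itself was in this list and in the sort gate of both groups, and rose by 1.19 (adjusted p = 4.03e-04). Cldn3, a tight junction claudin, went from 56.6, 24.0, 51.9 and 52.6 TPM to 520, 612 and 528 TPM, a rise of 3.62 on the log2 scale (SE 0.29, adjusted p = 8.84e-05). Cldn7 went from 179 to 215 TPM to 579 to 853 TPM (1.81), Cldn4 from 172 to 273 TPM to 337 to 626 TPM (1.13), Cldn8 rose by 2.32 and Cldn23 by 3.75. Cldn6, the claudin of early embryonic epithelia, was at 660 to 803 TPM and 825 to 962 TPM and was not called (log2 change 0.28, adjusted p = 0.0784).

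Of the keratins, Krt19 went from 263, 170, 215 and 159 TPM to 587, 871 and 511 TPM (log2 change 1.69, adjusted p = 0.00109), Krt7 rose by 1.68, Krt8 rose by 1.07, and Krt18 had an adjusted p of 0.00708 but its change of 0.82 was below the fold limit. Cdh1, E-cadherin, did not pass the test (49.5 to 69.2 TPM against 44.5 to 117 TPM). Cdh2, N-cadherin, which marks mesoderm and neural cells, fell from 98.5, 90.2, 92.2 and 83.4 TPM to 1.59, 0.767 and 0.389 TPM, a fall by 5.63 on the log2 scale (adjusted p = 3.75e-05). Cdh2 was nearly absent from emColon while Cdh1 overlapped between groups.

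Genes of differentiated absorptive cells were mixed. Of 19 tested enterocyte and colonocyte genes, 9 rose and 5 fell, with a median change of 1.35. Cdh17, the liver-intestine cadherin, was listed at 0 in all emHindgut libraries and at 65.2, 17.5 and 39.3 TPM in emColon (adjusted p = 2.48e-04). Apob, the protein of chylomicrons, rose from 0 to 1.09 TPM to 15.6 to 23.9 TPM, and Vil1, the brush border protein villin, from 9.32 to 25.8 TPM to 28.6 to 44.9 TPM (log2 change 1.35). Car4, a carbonic anhydrase of the mature colon surface, went the other way, from 134, 132, 139 and 120 TPM to 0, 12.9 and 1.82 TPM (log2 change -5.28, adjusted p = 0.00126). Car2 fell by 1.73 on the log2 scale, and Aqp3, a water channel, went from 9.62 to 75.7 TPM to 0 in all emColon libraries. Fabp1, a fatty acid carrier, was at 0, 27.3 and 0 TPM in emColon and was not called. Without emColon replicate 2 the count was 5 higher and 6 lower of 17 and the median -1.24. Cdh17 and Ugt2b34, listed at 0 in every emHindgut library, could not pass the filter with 2 emColon libraries. The change of sign therefore cannot be credited to that replicate alone. Among genes above 10 TPM the median was 0.099.

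Few genes of the secretory and endocrine lineages passed the filter, 8 of 21 goblet and secretory genes and 6 of 23 endocrine genes. Of the 8, 2 rose, Tff3 and the membrane mucin Muc13 (from 0 in every emHindgut library to 26.0, 24.5 and 5.35 TPM), and 2 fell. Their median change was 0.39 against -0.54 for all genes tested, of which 4.16% rose and 16.6% fell. The goblet mucin gene Muc2 and the secretory master factor Atoh1 were listed at 0 in all emColon libraries and did not pass the filter. Spdef, a goblet factor, went from 0.877 to 8.89 TPM to 0, 0 and 1.40 TPM, with an adjusted p of 0.0499, and Agr2 was at 0, 16.9 and 0 TPM. Of the endocrine genes, Neurog3 and Neurod1 were listed at 0 in all 7 libraries, and 3 of 6 tested members fell with none rising.

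Genes of the tail bud fell. Of 20 caudal progenitor genes, all of which passed the filter on low values, 19 were called lower and none higher. Of all genes tested, 16.6% were called lower and 4.16% higher. The median change of the list was -5.55, and the groups did not overlap for 19 of the 20, against 36.6% of all genes tested. Several members, such as Fgf8, Cdx4 and Cyp26a1, were listed at 0 in every emColon library and passed the filter through emHindgut alone. Such genes could be called only lower. Summed over the list, TPM was 2832 to 3206 in emHindgut and 47.4 to 76.7 in emColon. Cyp26a1, which breaks down retinoic acid, was at 625, 447, 586 and 699 TPM in emHindgut and 0 in all 3 emColon libraries (adjusted p = 1.17e-07). Cdx4, a caudal homeobox factor, was at 451, 509, 437 and 526 TPM and then at 0 in all (adjusted p = 1.17e-07). Fgf8, the tail bud FGF ligand, was at 532, 319, 455 and 451 TPM and then at 0 in all (adjusted p = 2.98e-07).

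The promoter of Cyp26a1 is shown because it holds a direct repeat of the retinoic acid receptor half-site. The 250 bases before its start site (chr19:37697558-37697807, plus strand, GRCm38.p6, RefSeq) hold AGTTCA repeated after any 5 bases, on the opposite strand, in capitals:
Cyp26a1: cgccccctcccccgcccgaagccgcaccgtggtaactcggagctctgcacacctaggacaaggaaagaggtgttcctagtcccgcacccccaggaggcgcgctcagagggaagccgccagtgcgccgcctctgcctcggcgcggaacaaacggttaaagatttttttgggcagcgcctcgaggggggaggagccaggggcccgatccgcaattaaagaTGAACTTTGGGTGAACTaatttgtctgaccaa

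That exact spelling was in 7 of 27025 promoters (0.0259%) and, among the promoters of tested genes, in that of Cyp26a1 alone. No other spelling of the repeat was searched, so the counts do not show how rare such repeats are. Other members of the list were Wnt3a, the Wnt ligand of the tail bud, at 43.0 to 55.7 TPM and then 0, T at 239, 176, 258 and 312 TPM and then 0, 0.0246 and 1.72 TPM (log2 change -7.43), Msgn1, a presomitic mesoderm factor, which was listed at 0 in all emColon libraries, and Wnt5b, which fell by 6.74 on the log2 scale. T and Msgn1 also mark tail bud mesoderm, and what such cells added to the other falls was not tested.

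The other genes among the 15 largest falls were Id3, Id1, Isl1, Rspo3, Crabp1, Hoxc10, Lmo2, Apela and Ifitm1. Rspo3, an amplifier of Wnt signalling, was at 176, 172, 187 and 172 TPM and then 0 in all. Isl1, a LIM homeobox factor, was at 158 to 244 TPM and Lmo2, a blood and vessel regulator, at 133 to 190 TPM, and both were listed at 0 in all emColon libraries. Apela, a peptide ligand of early endoderm, fell from 475 to 662 TPM to 0.592 to 13.2 TPM (log2 change -7.30), and Ifitm1 from 1252 to 1679 TPM to 33.1, 0.506 and 49.0 TPM (-6.65). Among protein-coding genes, 60 of 7267 that exceeded 10 TPM in every emHindgut library were listed at 0 in all emColon libraries, and 9 of 5193 showed the opposite pattern.

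Hox genes fell along nearly the whole clusters. Of 16 tested genes of paralog groups 9 to 13, 14 fell and 1 rose (median -4.41), and of 23 genes of the anterior groups 19 fell and none rose (median -3.47). Hoxc10 was at 172, 155, 174 and 169 TPM in emHindgut and 0 in all emColon libraries, and Hoxc9 fell from 40.6 to 44.2 TPM to at most 0.0631 TPM. Hoxd10, Hoxd11 and Hoxd13 were each seen in only 1 emColon library, at 9.43, 3.62 and 7.33 TPM, against 83.3 to 124, 51.2 to 61.1 and 36.5 to 54.5 TPM in emHindgut. Hoxa13, the terminal hindgut gene of its cluster, remained in all 3 emColon libraries at 2.26, 5.42 and 1.32 TPM, down from 9.78 to 14.3 TPM (log2 change -1.88, adjusted p = 0.0220).

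Hoxb13 was the exception. It was at 0, 0.0992, 0 and 0.893 TPM in emHindgut and at 24.0, 22.4 and 24.7 TPM in emColon (log2 change 4.36, SE 0.44, adjusted p = 2.64e-04), and it lies apart from the other HoxB genes (chr11:96194316-96197447, mm10). In the extraembryonic-derived colon libraries of the same stage the corresponding difference of Hoxb13 was 0.79. Of the anterior genes, Hoxb1 was at 45.3 to 65.5 TPM and Hoxc8 at 46.1 to 57.0 TPM in emHindgut, and both were listed at 0 in every emColon library. Hox clusters carry overlapping and antisense transcripts, and these libraries, made with the Nextera XT kit, do not mark strand. The methods give no strand option for the quantification, so the reads of overlapping and antisense genes cannot be told apart.

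**Figure D3:**
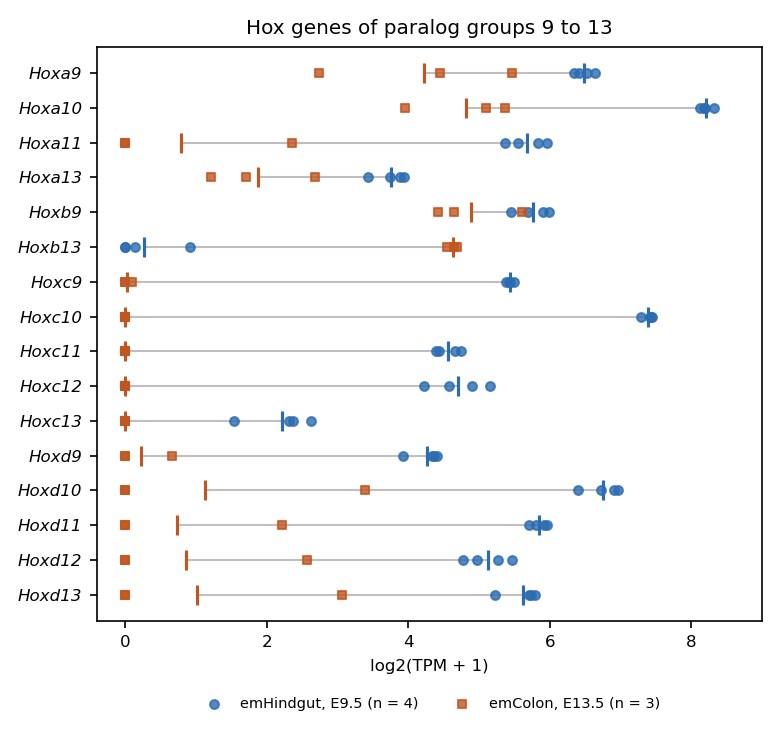
Library values (dots) and group means (ticks) of the 16 Hox genes of paralog groups 9 to 13, as log2(TPM + 1). Hoxb13 alone lies higher in emColon; HoxC genes sit at or near 0 there, and Hoxb9 overlaps between groups.

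In each signalling list more genes fell than rose, which was also so among all genes tested (16.6% lower and 4.16% higher). Of 26 tested stem cell and Wnt target genes 12 fell and 3 rose. Axin2, a direct Wnt target, went from 10.6, 19.4, 14.6 and 13.1 TPM to 1.16, 0 and 0.418 TPM (log2 change -3.38, adjusted p = 0.00135), Lef1, a Wnt effector, from 163 to 274 TPM to 0 to 7.85 TPM (-5.72), Tnfrsf19 fell by 6.44, and Dkk1, a Wnt inhibitor, from 27.1 to 72.3 TPM to 0 in all. The adult stem cell marker Lgr5 was at 8.24, 0 and 0 TPM in emColon and was not called. Cd44, a progenitor surface protein, rose from 0.678 to 11.49 TPM to 14.9 to 20.5 TPM (2.09, adjusted p = 0.0442), and Ly6a, known from fetal intestinal epithelium as Sca-1, from 26.2 to 59.7 TPM to 84.8 to 183 TPM (1.44).

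For Hedgehog signalling, 7 of 14 tested genes fell and 1 rose. The ligand Ihh rose from 2.39, 2.31, 7.84 and 4.11 TPM to 35.3, 106 and 23.6 TPM (log2 change 3.27, adjusted p = 0.00524), while the ligand Shh overlapped between groups (45.4 to 86.6 TPM and 34.6 to 92.2 TPM). The receptor and target Ptch1 fell from 43.97 to 62.6 TPM to 2.30 to 16.5 TPM (-2.93), while the transducer Smo and the co-receptor Boc were not called (log2 changes -0.83 and -1.14, adjusted p = 0.0587 and 0.252). In the Notch list 13 of 24 fell and none rose. Notch1 went from 21.9 to 39.4 TPM to 6.08 to 6.80 TPM, the target Hey1 from 34.5 to 51.7 TPM to at most 0.292 TPM, and the ligand Dll1, which the caudal list shares, to 0 in all, while the target Hes1, at 178 to 339 TPM and 153 to 214 TPM, was not called.

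The BMP and TGF-beta list had 12 of 30 genes lower and 1 higher. Bmp4 fell from 151, 230, 147 and 150 TPM to 6.29, 6.11 and 18.7 TPM (log2 change -4.05, SE 0.38, adjusted p = 1.87e-04). The BMP target genes of the Id family code for inhibitors of helix-loop-helix factors, and 3 of them fell while 1 rose. Id3 (chr4:136143497-136145755, mm10) was the most significant fall of all genes tested, from 906, 1350, 933 and 812 TPM to 0 in all 3 emColon libraries (adjusted p = 1.11e-07), and Id1 went from 737, 873, 716 and 573 TPM to 29.1, 0 and 0 TPM (log2 change -7.85, SE 1.03, adjusted p = 9.6e-04). Id4 fell by 2.85 on the log2 scale. Id2 rose from 833, 733, 758 and 800 TPM to 1784, 1905 and 1887 TPM (1.25, SE 0.0841, adjusted p = 5.10e-05). Msx1 and Msx2, other BMP targets, were at 65.9 to 121 TPM and 40.2 to 82.6 TPM and then at 0 in all.

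Among FGF genes 7 of 18 fell and 2 rose. Of the 4 receptors tested, Fgfr2 and Fgfr4 rose, Fgfr2 from 9.83 to 20.9 TPM to 48.5 to 97.8 TPM (log2 change 1.90, adjusted p = 0.00663) and Fgfr4 from 1.95 to 4.23 TPM to 20.5 to 31.6 TPM (2.72), while Fgfr1 and Fgfr3 were not called (log2 changes -1.01 and -0.21). The feedback genes were divided. Dusp6 fell from 404 to 508 TPM to 136 to 194 TPM (-1.37), Spry4 by 3.66 and Il17rd by 4.38 on the log2 scale, whereas Spry1, Spry2 and Spred2 were not called (0.57, 0.31 and -0.13). Of the ligands, Fgf17 fell with Fgf8, from 111 to 220 TPM to 0, 0 and 6.46 TPM. The epithelial ligand Fgf9 was at 6.76 to 17.7 TPM and 10.96 to 43.2 TPM and was not called.

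In the retinoic acid list 9 of 18 fell and 2 rose. Rbp4, the blood carrier of retinol, rose from 31.4, 22.6, 45.9 and 28.6 TPM to 1126, 2394 and 2838 TPM (log2 change 5.94, SE 0.33, adjusted p = 2.07e-05), and Rbp2, the intestinal retinol-binding protein, by 2.84. The cellular retinoic acid binding proteins fell, Crabp1 from 273, 252, 119 and 114 TPM to 0 in all and Crabp2 from 375 to 527 TPM to 43.1 to 180 TPM (-2.29), as did Aldh1a2, which makes retinoic acid, from 17.9 to 37.3 TPM to 0 in all.

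Genes of the early embryonic program fell, though not as a block. Of 20 embryonic RNA-binding and let-7 related genes 12 fell and none rose, where 16.6% of all genes tested fell and 4.16% rose. Their median change was -1.505 against -0.54 for all genes. Sall4 went from 192, 172, 162 and 171 TPM to 20.2, 9.54 and 13.3 TPM (log2 change -3.57, adjusted p = 6.39e-05), Lin28a from 72.6 to 99.0 TPM to 0.294, 3.52 and 24.4 TPM (-3.95), Lin28b by 3.40 on the log2 scale and Igf2bp1 from 130 to 159 TPM to 45.5 to 52.9 TPM (-1.57). Hmga2 (243 to 285 TPM and 174 to 258 TPM) and Igf2bp3 (101 to 143 TPM and 126 to 192 TPM), which let-7 also targets, were not called. Of 26 tested imprinted genes 14 fell and 2 rose, with a median change of -1.199. Igf2 rose from 109 to 198 TPM to 332 to 504 TPM (1.39), while Mest fell from 380 to 505 TPM to 42.0 to 170 TPM (-2.58), Grb10 by 1.38 and Dlk1, from 21.1 to 28.4 TPM to 2.00 to 8.89 TPM, by 2.04. Peg3 and Cdkn1c were not called.

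For proliferation, of 34 mitosis genes 8 fell and of 34 DNA replication genes 13 fell, with medians of -0.76 in both lists against -0.54 for all genes, and with median-ratio scaling 3 fell in each. Mki67 was at 26.9 to 34.6 TPM and 30.1 to 48.6 TPM and Mcm6 at 144 to 190 TPM and 166 to 180 TPM, neither called. Ccnd1, cyclin D1, fell from 254 to 279 TPM to 39.5 to 98.2 TPM (log2 change -1.89, adjusted p = 0.00218). Of 28 tested p53 target genes 7 fell and none rose, where 16.6% of all genes tested fell. Their median of -0.53 lay at that of all genes (-0.54), and with median-ratio scaling 2 fell. Cdkn1a, the p21 inhibitor, was at 312, 277, 236 and 199 TPM and then at 106, 0.749 and 45.9 TPM (adjusted p = 0.0444), Pmaip1, the cell death gene NOXA, fell from 12.2 to 18.4 TPM to at most 0.162 TPM (-4.03), and Mdm2 overlapped between groups.

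The metabolic lists differed from each other. Of 40 oxidative phosphorylation genes, 1 rose (Cox7c, by 1.19) and none fell, with a median change of 0.35 against -0.54 for all genes, and for 16 of them the groups did not overlap with emColon higher. With median-ratio scaling 8 of the 40 were called higher. Of 22 glycolysis genes 6 fell and none rose (median -0.59), and of 25 cholesterol synthesis genes 1 rose and 1 fell (median -0.27). Basement membrane and integrin genes fell in 13 of 30 tested members and rose in 3 (median -0.997). Axon guidance genes fell in 16 of 40 and rose in 1 (median -1.16). These counts stand beside 16.6% of all genes tested called lower and 4.16% called higher. B2m, the constant chain of MHC class I, rose from 48.3 to 90.7 TPM to 212 to 409 TPM (log2 change 2.26, adjusted p = 7.40e-04), whereas H2-K1, at 23.1 to 74.4 TPM and 76.1 to 168 TPM, was not called (adjusted p = 0.109). H2 and Ifitm genes have near-identical relatives, so their values are uncertain.

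**Figure D4:**
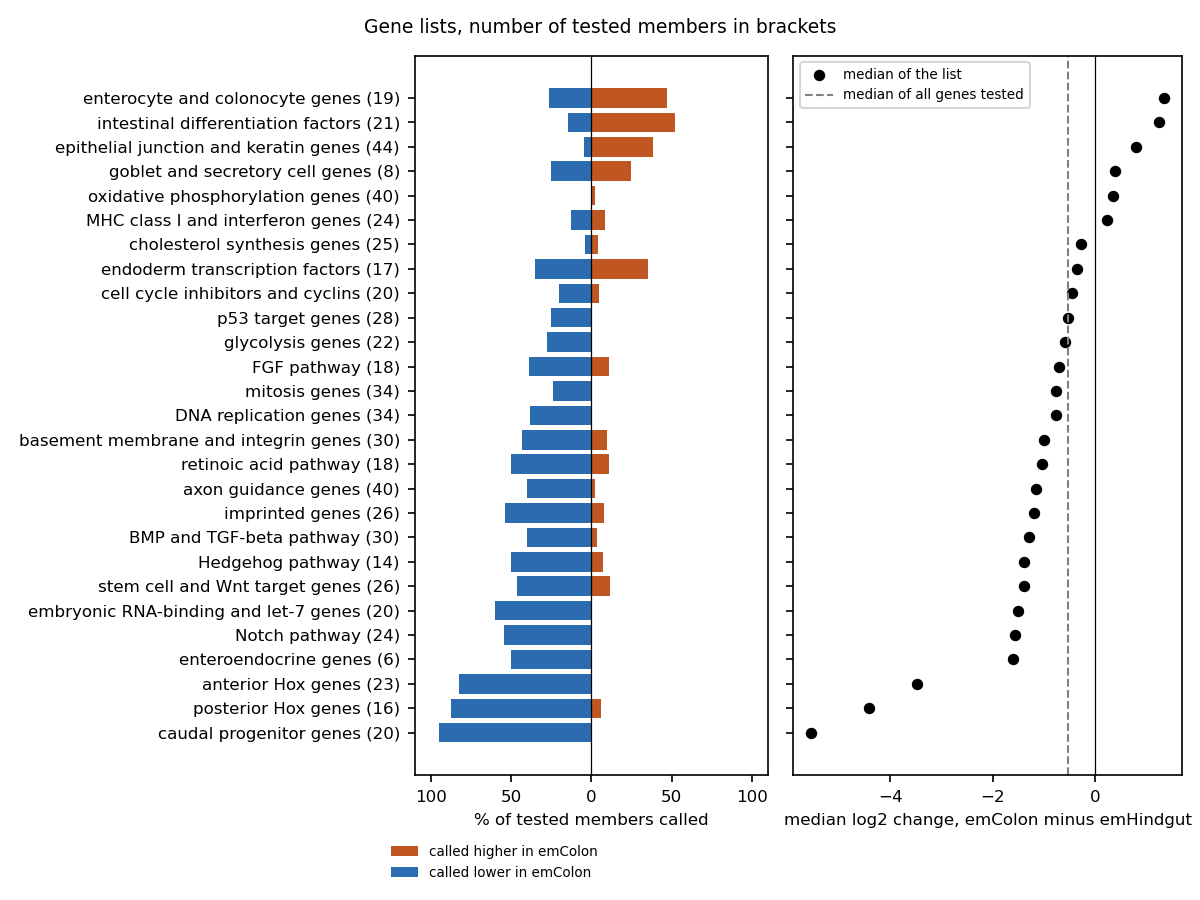
Left, the percentage of each list's tested members called higher (orange) or lower (blue) in emColon; right, the median log2 change of the list, with the median of all genes (-0.54) dashed. Caudal progenitor and Hox lists lie far below that median, and enterocyte, differentiation factor and junction lists lie above 0. Without emColon replicate 2 the enterocyte median was -1.24, but Cdh17 and Ugt2b34 could not be tested there.

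Markers of other cell types moved with these results. Their counts stand beside 16.6% of all genes tested called lower and 4.16% called higher. Only members that passed the filter were counted, and some, such as Pdgfra, passed it through emHindgut alone. Mesenchyme markers summed to 101 to 148 TPM in emHindgut and 12.95 to 126 TPM in emColon, with 8 of 9 tested members called lower, among them Pdgfra (6.87 to 17.7 TPM and then 0 to 0.983 TPM). Surface ectoderm markers fell in 4 of 6 tested members, notochord markers in 4 of 7, urogenital markers in 5 of 7 with 2 higher (Wfdc2 and Upk1a), and neural crest and neuron markers in 3 of 6, led by Fabp7 (74.6 to 161 TPM and then 6.80, 0 and 0 TPM). The urogenital list nevertheless summed to 173 to 254 TPM in emHindgut and to 553 to 776 TPM in emColon, where Wfdc2 alone was at 463 to 667 TPM. Of the neural crest markers, Sox10 was listed at 0. Endothelial markers summed to 47.3 to 89.2 TPM in emHindgut and 15.7 to 56.4 TPM in emColon, nearly all of it from Egfl7, the 1 tested member of 10, which was not called (log2 change -1.26, adjusted p = 0.0646), while the defining markers Pecam1 and Cdh5 stayed below 0.1 TPM. Blood markers summed to at most 8.05 TPM, and germ cell and mesothelial lists had 1 and 0 called members. In the list of stomach, pancreas and liver markers Sox2 went from 11.7 to 24.5 TPM to 0 in all, while Afp and Ttr, made by fetal liver and yolk sac endoderm, rose and Alb was listed at 0 in all 7 libraries. Genes of the dissociation response had 3 of 16 members higher and 2 lower. What these cells added to each gene's change was not tested.

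The same interval was then compared with that of the midgut, where 4 emMidgut libraries at E9.5 and 3 emSI libraries (small intestine) at E13.5 had been made by the same sorts. The difference between the regions' stage changes was tested by an interaction term over 14 libraries, with no fold limit. Embryos may be shared between the regions at each stage, and the fit treated the libraries as separate. Of 13517 genes 1401 were called (10.4%), 600 with the more positive change in the hindgut (4.44%) and 801 with the more negative (5.93%). Without emColon replicate 2 the count was 1565. Among caudal genes 14 of 20 and among posterior Hox genes 10 of 16 differed by region, as did 23 of 44 junction and keratin genes.

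Id3 had the smallest adjusted p. It lay at 301, 334, 182 and 121 TPM in emMidgut and 281, 144 and 112 TPM in emSI, so that its log2 change differed by -9.55 between regions (SE 0.48, adjusted p = 1.39e-08). It was also present in the extraembryonic-derived colon libraries, at 226, 274 and 8.89 TPM. Both other E13.5 groups set beside emColon thus held Id3.

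Several genes that rose from emHindgut to emColon lay lower in emSI than in emMidgut. Afp was at 662, 734, 952 and 978 TPM in emMidgut and 71.8, 180 and 56.7 TPM in emSI, a difference between regions of 9.42 (adjusted p = 4.40e-07). Spink1 was at 399 to 544 TPM in emMidgut and 39.2 to 125 TPM in emSI (difference 9.69). Apoe, an apolipoprotein, rose from 10.0 to 27.4 TPM in emHindgut to 330 to 730 TPM in emColon. It went from 258 to 498 TPM in emMidgut to 35.2 to 87.7 TPM in emSI (difference 7.43). S100a10, an annexin partner (3.09), Sdc4, a syndecan (3.72), Rnase4 (3.49) and Bex1 (3.09) had the same pattern of group means.

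Rbp4 differed by 6.08 and was at 586 to 1671 TPM in emMidgut and at 944 to 984 TPM in emSI. Cpa1, a pancreatic protease, was also among the 10 genes with the smallest adjusted p. It was listed at 0 in emHindgut and emColon and is not a change of the posterior gut. Krt19 differed by 2.75. Lgals4, Cdh17 and Kcne3 had higher means at E13.5 in both regions and their region differences did not pass the test (adjusted p = 0.776, 0.534 and 0.995), with estimates of 0.62, -0.71 and -0.01 (SE 1.119, 0.656 and 0.851).

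**Figure D5:**
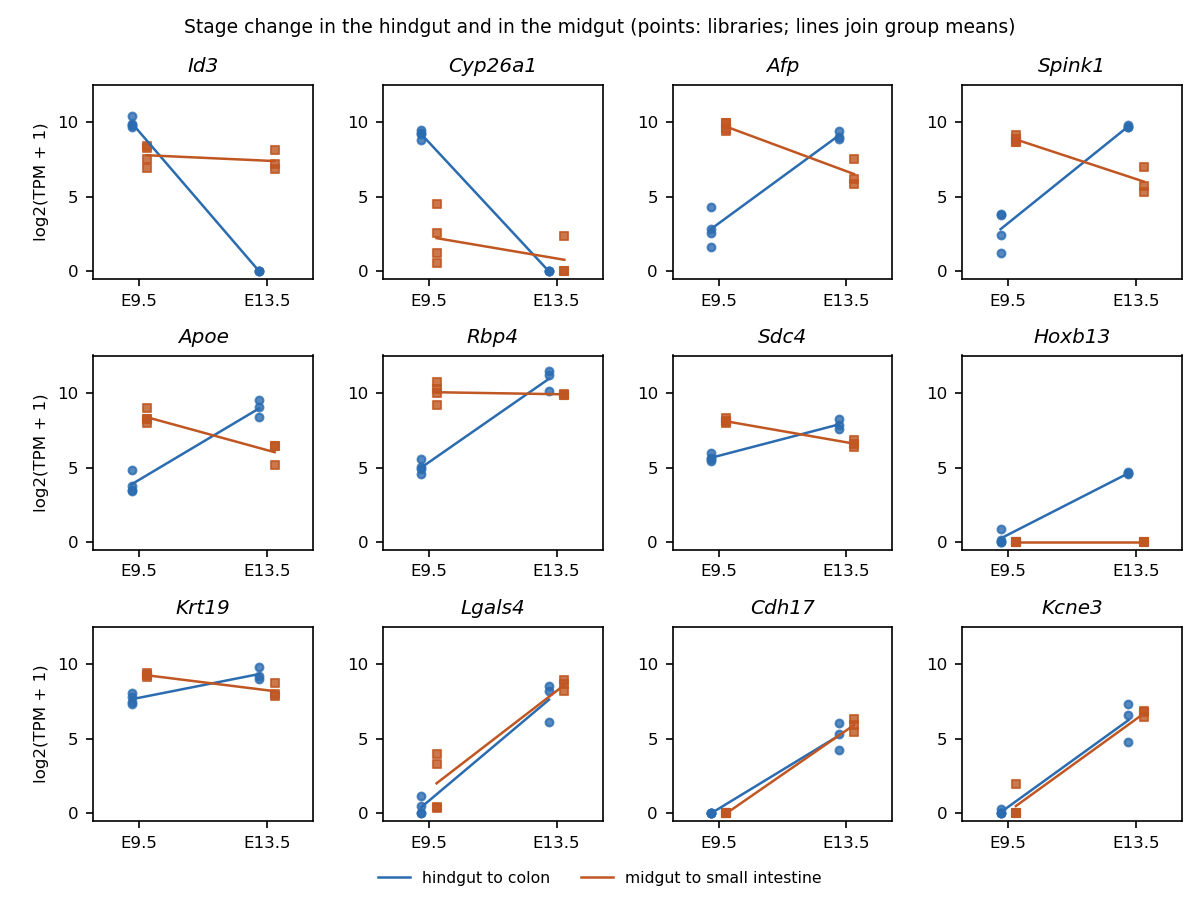
For 12 genes, library values (points) and lines between group means of log2(TPM + 1) at E9.5 and E13.5, hindgut to colon in blue and midgut to small intestine in orange. The lines of Afp, Spink1, Apoe, Rbp4, Sdc4 and Krt19 cross, Id3 is at 0 in the colon only, and Lgals4, Cdh17 and Kcne3 run together.

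The stage change was last set beside that of the cells of extraembryonic origin in the same gut segment, exHindgut (wild type, n = 4) and exColon (Trp53 knockout, n = 3), which share no library with the comparison, although embryos may be shared at E9.5 and at E13.5. Of the 514 genes called higher, 477 (92.8%) had a positive difference there, against 37.6% of all genes tested, and of the 2048 called lower 1783 (87.1%) had a negative one, against 62.2%. From emMidgut to emSI the corresponding shares were 303 genes (58.9%) against 31.9% and 1620 genes (79.1%) against 67.7%. Across the 12359 genes the log2 changes correlated at 0.64 with those of the extraembryonic-derived segment and at 0.29 with those from emMidgut to emSI. Genes are not independent replicates, and the libraries of a stage share sorting and preparation.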

How the data were processed

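Poly(A) RNA of sorted cells was separated from genomic DNA and sequenced from low-input libraries, by a protocol adapted from Smart-RRBS. After trimming (cutadapt 4.1), the authors mapped reads to mm10 plus the GFP and mCherry transgenes by STAR 2.7.9a and ran StringTie 2.0.6 on each library against a GENCODE annotation. The deposited TPM values are scaled to a sum of 1000000 per library. The deposited FPKM values and the deposited coverage signal (mean read depth per base) were used only for an alternative scaling and for depth. Read counts were not used here.

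TPM was summed per gene identifier. Of 32287 identifiers, 32160 matched GENCODE vM21, and 21627 were protein-coding or transgenes. Genes above 1 TPM in at least 3 libraries were tested on log2(TPM + 1) with limma 3.58.1 (trended eBayes, R 4.3.3), emColon against emHindgut over 7 libraries and the region interaction over 14. The fit was tested on simulated data in which 200 genes were changed. The stage fit recovered 38 of them at a log2 change of 1.5 and 135 at 3, with 3 and 9 false calls. The region fit recovered 32 and 115, with 0 and 8 false calls. A gene without a call may therefore still have changed. Named genes were the 15 largest rises and falls without overlap, fixed members and up to 4 called members per direction of each list, and the 10 smallest adjusted p of the interaction, with Trp53 (the edited gene), Hoxb9 (the only posterior Hox gene tested without a call), Boc, Egfl7, Fgfr3, Id4, Krt7, Smo, Spred2, Spry1 and Spry2 added after their values were seen. The text gives a part of the genes that the rule names, and some are not reported here. The libraries, lists and rule were chosen with earlier results of these data known. Alternatives were the pseudocount, filter, scaling, variance trend, gene types, samples in the fit, a replicate block and leaving out each library.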

Additional observations from a re-analysis of the deposited data

Results flagged for a closer look

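The stage change from hindgut to colon differed from that from midgut to small intestine, by the limma interaction test at an adjusted p under 0.05, for 1401 genes and for the genes named here, whose differences of log2 change (hindgut minus midgut) stand in brackets. Genes that rose in emColon and had the more positive change there were Spink1 (9.69), Afp (9.42), Postn (8.95), Apoe (7.43), Serpina1a (6.74), Tff3 (6.69), Rbp4 (6.08), Apoa1 (5.95), Ttr (5.53) and Isx (4.83). The next were Tspan8 (4.37), Hoxb13 (4.36), Fgfr4 (4.33), Ly6a (4.17), Nr5a2 (4.00), Muc13 (3.94), Sdc4 (3.72), Apob (3.69), Cldn8 (3.67), Scin (3.54) and Rnase4 (3.49). Smaller positive differences were found for Ugt2b34 (3.35), Krt7 (3.35), Rbp2 (3.29), Cldn23 (3.28), Lgals2 (3.20), Bex1 (3.09), S100a10 (3.09), Ihh (2.93), Gata6 (2.92), Cldn3 (2.85), Krt19 (2.75), Prdm1 (2.68) and Foxa1 (2.62). The smallest were those of B2m (2.24), Fgfr2 (2.20), Upk1a (1.83), Wfdc2 (1.76), Krt8 (1.39), Cldn7 (1.32), Cldn4 (1.21), Epcam (0.96) and Id2 (0.51). The more positive change was also found in genes not called in emColon, namely Hoxb9 (3.17), Peg3 (2.17), H2-K1 (1.84), Cdkn1c (1.76), Cdh1 (1.73), Cldn6 (1.63), Krt18 (1.34) and Igf2bp3 (1.13).

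Genes that fell in emColon and had the more negative change there were led by Id3 (-9.55), Crabp1 (-9.29), Fabp7 (-8.52), Pmaip1 (-8.06), Id1 (-7.98), Cyp26a1 (-7.74), Fgf8 (-7.51), Rspo3 (-7.08), Lmo2 (-6.93), Msgn1 (-6.92), Isl1 (-6.78) and T (-5.96). Next came Dll1 (-5.88), Hoxb1 (-5.75), Wnt3a (-5.65), Mixl1 (-5.34), Cdx4 (-5.23), Pdgfra (-5.13), Hoxc10 (-5.09), Wnt5b (-4.97), Aldh1a2 (-4.89), Cdh2 (-4.67), Fgf17 (-4.66), Ifitm1 (-4.59) and Hoxd11 (-4.52). Smaller negative differences belonged to Hey1 (-4.46), Tnfrsf19 (-4.32), Spry4 (-4.08), Cdkn1a (-4.08), Notch1 (-4.05), Msx2 (-3.70), Msx1 (-3.56), Hoxc8 (-3.36), Mest (-2.99), Axin2 (-2.89), Dkk1 (-2.85) and Hoxc9 (-2.77). The last of them were Ptch1 (-2.69), Id4 (-2.34), Dlk1 (-2.31) and Ccnd1 (-1.50). Negative differences without a fall in emColon were those of Cpa1 (-7.01), Agr2 (-5.53), Egfl7 (-2.10), Elf3 (-1.86) and Hes1 (-1.32).

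In emHindgut, the group of 4, 1 library stood far from the rest by Dixon's criterion for 12 of 150 genes. The chance rate of that criterion, about 1 in 20, holds for normally distributed values and cannot be applied here. Genes listed at 0 in all libraries but 1 are always flagged, and genes at 0 in all 4 never are. Most of the 12 were genes near 0, where replicate 1 held 0.000576 TPM of Lgals2. Replicate 3 held 0.532 TPM of Wfdc15b, 0.0885 TPM of Scin and 1.54 TPM of Nr1h4. Replicate 4 held 0.208 TPM of Kcne3, 0.893 TPM of Hoxb13, 0.308 TPM of Hnf4a and 4.098 TPM of Hnf4g. Among well expressed genes, Apoe was at 27.4 TPM in replicate 1, Cldn3 at 24.0 TPM and Bmp4 at 230.2 TPM in replicate 2, and Dlk1 at 21.1 TPM in replicate 4.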

How the results depend on the processing

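Of 117 named genes called between the stages, 106 stayed called in the same direction under every alternative in which they were tested. The other 11 lost the call under at least 1 and none reversed. The 11 were Car2, Cd44, Cdkn1a, Cldn4, Dlk1, Elf3, Foxa1, Hoxa13, Krt8, Spdef and Vil1. Of 97 region differences 76 kept their call wherever they were tested, 21 lost it and none reversed. The count of 2562 genes became 4031 with all 44 libraries in the fit and 1502 of 8194 for genes above 10 TPM, a filter added after the data were seen. It ranged from 1671 (without emHindgut replicate 4) to 3072 (without emColon replicate 3) when a library was left out. The region count of 1401 became 2705 with all 44 libraries and ranged from 1024 to 1936. The causes were not tested. Genes seen in emColon alone cannot pass the filter with 2 emColon libraries, so 107 of the 117 were tested there. With the replicate number as a block the counts were 2581 and 1342, and 1425 with the number within each stage. The numbers were not treated as pairs, since deviations from the group means correlated at -0.0194 to 0.0328 between same-numbered libraries.

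Changes of sign were confined, among the genes named, to genes without a call. With median-ratio scaling Cdx2 was at 0.040, Hmga2 at 0.061, Trp53 at 0.12, Fgfr3 at 0.011 and Spred2 at 0.19. Quantile normalization gave 0.13 for Cdx1, 0.019 for Lgr5, 0.85 for Fgfr3 and 0.35 for Spred2, and FPKM 0.026 for Cdx1 and 0.044 for Spred2. When single libraries were left out, Cdx1 ranged from -1.99 to 0.47, Lgr5 from -1.58 to 0.020, Shh from -0.037 to 0.66, Cdkn1c from -0.20 to 0.25, Cdh1 from -0.14 to 0.55, Fgfr3 from -0.81 to 0.38, Spred2 from -0.39 to 0.22 and Mcm6 from -0.020 to 0.11. Without emColon replicate 1 Cdx1 and Lgr5 passed the test. Fabp1 fell by 4.77 without emColon replicate 2 and Agr2 by 2.53. Depth and the small number of sorted cells limit low values, and without read counts no interval can be set on them.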
